A study of Homo sapiens with 16 samples.

Results

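A human melanoma cell line labelled as edited in the melanocyte factor MITF was compared with another melanoma line at the level of messenger RNA. The edited line was SKMEL28 labelled MITFKO (named D2 in the study's design text), and it was set against A375 wild type, a melanoma line in which MITF is low without any editing. The label chooses 6 of the 16 RNA-seq libraries of the study, 3 for each line, and no measured value was used to choose them. TFE3, a close relative of MITF, was not edited in either group.

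The MITFKO libraries came from SKMEL28 cells carrying the MITF edit alone, grown in RPMI, and the A375 libraries from unedited A375 cells grown in DMEM. Both lines are established BRAF-mutant melanoma cell lines, and both received 10% fetal bovine serum, with fresh medium 24 h before harvest. The 3 replicates of each group were separate flasks, so p-values measure the spread between cultures, not between independently edited clones. All MITFKO libraries came from the single line D2, and how its MITF gene was edited is not given in the sources used here. Cell line, medium and MITF status change together between the groups and cannot be told apart. A single library of unedited SKMEL28 (replicate 4), the parent of the edited line, is given beside the values as a description, without a test.

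MITF is a basic helix-loop-helix leucine zipper factor that drives pigment synthesis and melanocyte survival. With TFE3, TFEB and TFEC it forms the MiT/TFE family, whose members bind short E-box sequences (CACGTG and CATGTG) and control lysosome and autophagy genes. Melanoma lines are commonly placed between a melanocytic state, with high MITF and pigment genes, and an invasive or dedifferentiated state, with low MITF and high AXL, EGFR and WNT5A. The comparison asks how far a line labelled as MITF-edited matches a line with naturally low MITF.

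Each library held between 18891915 and 20881244 counts assigned to genes, and the SKMEL28 wild-type library held 23177517. The number of genes with at least 1 count ran from 16362 to 16665 in the MITFKO libraries and from 17047 to 17211 in the A375 libraries. Levels are given as CPM, counts relative to library size, after trimmed-mean (TMM) scaling, and a gene with 0 counts in a group is bounded by a floor of 3 counts over the group's 3 libraries, or 0.0513 CPM in MITFKO and 0.0484 CPM in A375. The melanoma labels were met in both lines by SOX10, the neural crest factor that defines the melanocyte lineage, at 865 ± 37.2 CPM in MITFKO and 526 ± 14 CPM in A375 (SD, n = 3 each). Of the other defining melanoma markers, S100B, PMEL and TYR were high in MITFKO and at or below 3.21 CPM in every A375 library, and MLANA was at or below 4.05 CPM in every library of both lines.

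MITF transcripts were not lost from the edited line. MITF was counted at 556, 526 and 493 CPM in the MITFKO libraries, against 40.8, 35.9 and 32.2 CPM in the A375 libraries. Every MITFKO library was more than 10 times any A375 library, and the fitted log2 fold change was 3.85 ± 0.0587 (SE; edgeR quasi-likelihood adjusted p = 2.83e-33). The SKMEL28 wild-type library stood at 568 CPM. A gene-level count does not read an edit that leaves the transcript in place, so it checks neither the MITFKO label nor the MITF protein. MITFKO is used here as the label of these libraries.

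The other family members were lower in MITFKO or scarce in both lines. TFE3 was at 74.2, 76.2 and 81.7 CPM in MITFKO and at 125, 119 and 131 CPM in A375. Its levels did not overlap between the groups, as at 85.1% of all genes tested. Its log2 fold change was -0.69 ± 0.0535 (adjusted p = 5.14e-16), short of 2-fold, and the SKMEL28 wild-type library held 47.4 CPM. TFEB averaged 1.67 ± 0.263 CPM in MITFKO and 2.75 ± 0.866 CPM in A375. Its edgeR adjusted p of 0.0301 became 0.107 without MITFKO replicate 1 and 0.244 without A375 replicate 3. The call was also lost with all 6 libraries kept, at an adjusted p of 0.0651 with the replicate block and 0.0607 with all 16 libraries in the fit. TFEC had 2 counts over the MITFKO libraries and 17 over the A375 libraries and was not tested.

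The lines differed at most genes. Of 14349 genes tested, 12117 (84.4%) passed an adjusted p of 0.05, with 5928 higher in MITFKO (41.3%) and 6189 lower (43.1%). Because so many genes passed, the counts read below are those past a 2-fold difference by a threshold test (edgeR glmTreat). By that test 2839 genes were higher in MITFKO (19.8%) and 2661 were lower (18.5%), together 5500 (38.3%). These shares of all genes are the background for every list count below. The median absolute log2 fold change was 0.876, and 2046 genes differed by more than 8-fold. The libraries of both groups did not overlap at 12209 genes (85.1%). At a level of at least 10 CPM in one line and no more than 3 counts in the other, 59 genes were on only in MITFKO and 120 only in A375, beside 8458 genes at 10 CPM or more in both.

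A match was counted where the 95% interval of the fold change lay wholly within 1.5-fold in either direction. By that rule 3305 genes (23%) were matched between MITFKO and A375. Missing the adjusted p of 0.05 is not the same as a match: of the 2232 genes that missed it, 1358 were matched.

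**Figure D1:**
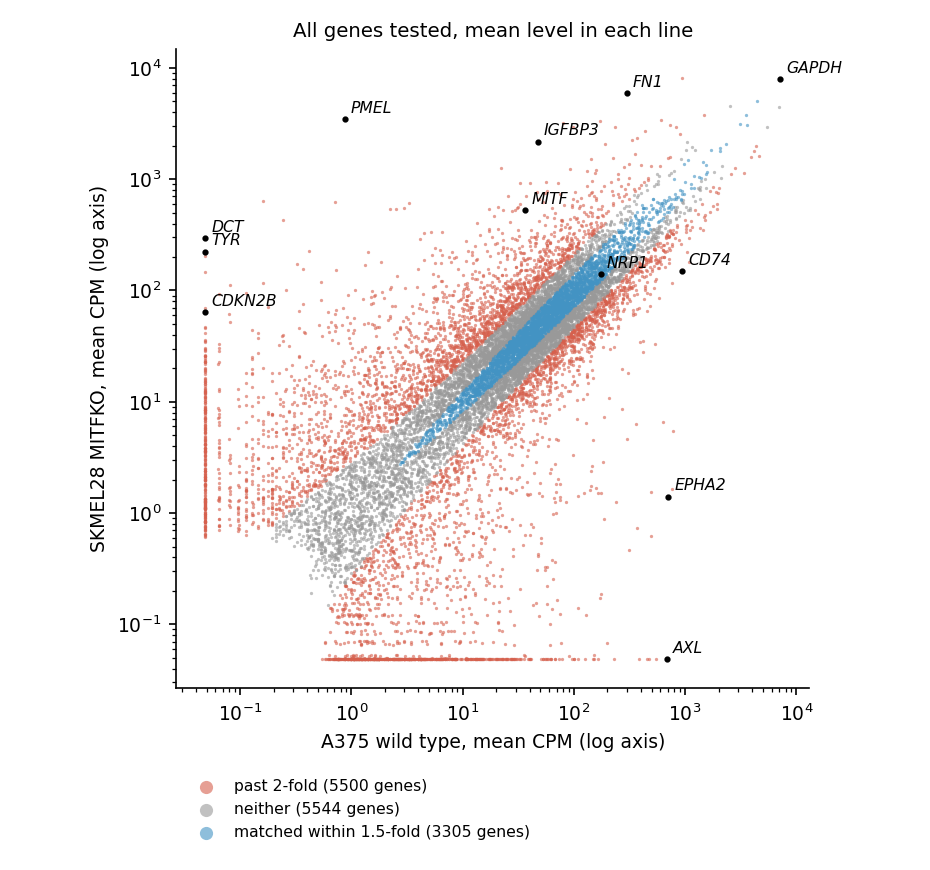
Mean CPM of each of the 14349 genes tested in A375 wild type (horizontal, log axis) and SKMEL28 MITFKO (vertical, log axis), means of 3 libraries each, with genes below the 3-count floor drawn at it. Red points are the 5500 genes past 2-fold, blue points the 3305 matched within 1.5-fold and grey points the rest; the pigment genes PMEL, DCT and TYR lie far above the diagonal, AXL and EPHA2 far below it, and NRP1 and GAPDH on it.

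Over the 14349 genes tested, the edited line lay about as far from A375 as its parent did. The filter used the MITFKO and A375 libraries only, so genes expressed only in the SKMEL28 wild-type library did not enter. That could lower the distance of the SKMEL28 wild-type library. The root mean square difference in log2 CPM from the A375 mean was 2.14, 2.15 and 2.15 in the 3 MITFKO libraries, and 2.20 in the SKMEL28 wild-type library. The median absolute difference went the other way, at 0.876, 0.881 and 0.876 in MITFKO and 0.839 in the SKMEL28 wild-type library. Both measures therefore place the edited and unedited lines at nearly the same distance, and they do not give the same order. For scale, each A375 library lay 0.326 to 0.347 from the mean of the other A375 libraries, and each MITFKO library lay 1.02 to 1.05 from the SKMEL28 wild-type library. Differences of the MITFKO and the SKMEL28 wild-type libraries from A375 share the same A375 libraries, so the pairs of values below are not independent.

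Pigment genes were mostly higher in MITFKO. Of 30 pigment and melanosome genes tested, 25 were past 2-fold higher in MITFKO and 2 lower, against 19.8% and 18.5% of all genes, and none was matched. Of the list's 32 members, 4 had 0 counts in A375, and none had 0 counts in MITFKO. A member silent in A375 could enter the test only through its MITFKO counts, so its direction was set by the filter. The list's median difference in log2 CPM was 3.98 for MITFKO minus A375 and 4.76 for the SKMEL28 wild-type library minus A375, against -0.026 for all genes in the MITFKO comparison. Tyrosinase (TYR), the rate-limiting enzyme of melanin synthesis, was at 222, 225 and 224 CPM in MITFKO and had 0 counts in all 3 A375 libraries, at least 4625-fold higher. DCT, the next enzyme of the eumelanin branch, was at 303, 294 and 292 CPM in MITFKO and 0 in A375, at least 6119-fold higher. Transcripts of these enzymes were counted in every MITFKO library and undetected at this depth in A375.

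PMEL, the protein of the melanosome's fibrils, was counted at 3385, 3407 and 3574 CPM in MITFKO, against 1.25, 0.68 and 0.682 CPM in A375. The groups were separated by 3976-fold in their means (log2 fold change 11.94 ± 0.068, adjusted p = 8.54e-59). SLC24A5, a cation exchanger of the melanosome, averaged 35.7 ± 3.14 CPM in MITFKO and was at 0 counts in A375, at least 738-fold higher. Levels of PMEL and DCT in the MITFKO libraries were still below those of the SKMEL28 wild-type library, at 11007 CPM for PMEL and 855 CPM for DCT. MLANA, a melanosomal antigen, did not follow the enzymes: it was at 4.05, 2.92 and 2.94 CPM in MITFKO, 779 CPM in the SKMEL28 wild-type library and 1.77, 0.486 and 0.341 CPM in A375. TYRP1, the last enzyme of the eumelanin branch, named after its values were seen, had 3 counts in MITFKO and 7 in A375. In bulk RNA, fewer cells that express a gene and less RNA per cell cannot be told apart. The list's members that were lower in MITFKO were the brain proteoglycan BCAN (4.41 CPM in MITFKO, 35.2 CPM in A375) and the hepatocyte growth factor receptor MET (85 CPM in MITFKO, 276 CPM in A375).

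Promoters of some members of this list and of the lysosome list below are shown because the MiT/TFE factors bind E-boxes. Only promoters that carry such a sequence are shown. The windows run from 250 bases before to 50 bases after the RefSeq start site (GRCh38.p14), written 5′ to 3′ on the gene's strand, with CATGTG, its reverse complement CACATG, and CACGTG in capitals. TYR lies on the plus strand at chr11:89177625-89177924, SLC24A5 on the plus strand at chr15:48120740-48121039, GPNMB on the plus strand at chr7:23246525-23246824, CTSD on the minus strand at chr11:1763878-1764177 and GAA on the plus strand at chr17:80101331-80101630.
TYR: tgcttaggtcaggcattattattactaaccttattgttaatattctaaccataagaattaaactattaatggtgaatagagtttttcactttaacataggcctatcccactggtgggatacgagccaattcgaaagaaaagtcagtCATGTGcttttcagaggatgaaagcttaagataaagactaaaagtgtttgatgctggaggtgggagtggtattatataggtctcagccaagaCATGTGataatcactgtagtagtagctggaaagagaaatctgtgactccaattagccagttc
SLC24A5: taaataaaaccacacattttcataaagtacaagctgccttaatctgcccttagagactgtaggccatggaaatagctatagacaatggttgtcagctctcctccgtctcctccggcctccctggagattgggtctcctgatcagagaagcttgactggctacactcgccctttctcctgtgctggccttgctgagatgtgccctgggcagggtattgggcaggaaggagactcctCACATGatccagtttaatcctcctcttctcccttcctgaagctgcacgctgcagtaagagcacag
GPNMB: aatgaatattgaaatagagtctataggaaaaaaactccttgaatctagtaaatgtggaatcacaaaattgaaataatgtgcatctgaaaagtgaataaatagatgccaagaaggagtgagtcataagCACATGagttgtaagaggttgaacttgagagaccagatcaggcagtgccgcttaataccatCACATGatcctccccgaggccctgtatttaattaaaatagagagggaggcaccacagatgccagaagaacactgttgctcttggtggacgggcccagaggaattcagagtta
CTSD: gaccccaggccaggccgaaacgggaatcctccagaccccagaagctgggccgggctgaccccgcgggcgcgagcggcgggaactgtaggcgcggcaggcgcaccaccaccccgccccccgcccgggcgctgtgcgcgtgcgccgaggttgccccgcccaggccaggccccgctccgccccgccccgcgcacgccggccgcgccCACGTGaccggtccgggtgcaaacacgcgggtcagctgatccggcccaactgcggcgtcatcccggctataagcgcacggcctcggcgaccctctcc
GAA: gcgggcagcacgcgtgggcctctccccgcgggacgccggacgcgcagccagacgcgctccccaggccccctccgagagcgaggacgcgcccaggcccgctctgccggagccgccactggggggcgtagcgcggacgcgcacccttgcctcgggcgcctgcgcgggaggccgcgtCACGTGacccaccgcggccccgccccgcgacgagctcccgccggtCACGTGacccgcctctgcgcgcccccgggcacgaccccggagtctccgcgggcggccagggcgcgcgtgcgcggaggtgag

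CATGTG, searched on both strands, was found in 11 of the 28 pigment promoters in the RefSeq table (39.3%), against 11.2% of all 27305 promoters. TYR carries it at -104 and -12 from the start site, SLC24A5 carries its reverse complement at -15, and GPNMB, a transmembrane glycoprotein of melanosomes and lysosomes, at -123 and -62. CACGTG was found in 12 of 31 lysosome promoters (38.7%), against 7.43% of all promoters. CTSD carries it at -47 and GAA at -76 and -31. CATGTG or CACGTG was found in 14 of the 28 pigment promoters (50%) and 15 of the 31 lysosome promoters (48.4%). The promoters of DCT and MLANA carried neither. The longer palindromic CLEAR motif of 10 bases, which contains CACGTG, was found in 3 of the 31 lysosome promoters (9.68%) and 0.381% of all. The lysosome list is the network named after this motif, so its motif shares are not independent of how its members are chosen. Among 29 promoters of the autophagy list, CATGTG was found in 6.9% and CACGTG in 10.3%, and either of them in 17.2%, against 17.9% of all promoters. Neither 6-base motif was found in the 25 promoters of the invasive list that the table holds. A motif match describes the letters of the window and is not a measure of binding.

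**Figure D2:**
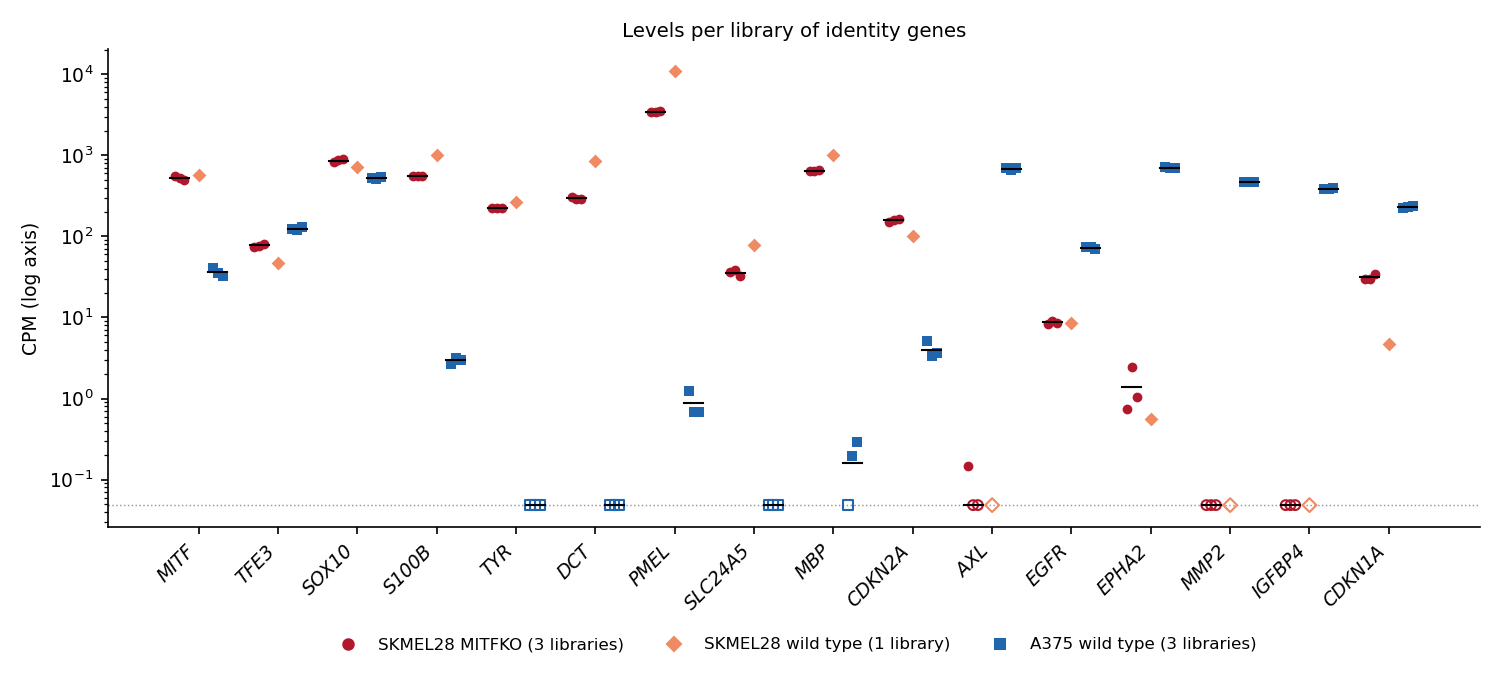
CPM (log axis) of lineage, pigment, invasive and cell-cycle inhibitor genes in each library: SKMEL28 MITFKO (circles, 3 libraries), SKMEL28 wild type (diamond, 1 library) and A375 wild type (squares, 3 libraries), with bars at the means of 3 libraries. Open symbols at the dotted line are below the 3-count floor; the MITFKO libraries sit with the SKMEL28 wild-type library for TYR, S100B, AXL and MMP2, and apart from A375.

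Transcription factors of the melanocyte and neural crest lineages were also apart. Of 22 tested, 11 were past 2-fold higher in MITFKO, 4 were lower and 4 were matched, and the list's median difference in log2 CPM was 0.996, beside 0.453 for the SKMEL28 wild-type library. SNAI2, a neural crest repressor needed for melanoblast survival, averaged 118 ± 1.07 CPM in MITFKO and 0.532 ± 0.174 CPM in A375 (log2 fold change 7.78 ± 0.121, adjusted p = 1.25e-42). IRF4, a cofactor of MITF at the TYR gene, was at 34.2, 31.3 and 32 CPM in MITFKO and at 0.383, 0.146 and 0.146 CPM in A375. LEF1, a WNT effector expressed in melanocytic cells, averaged 282 CPM in MITFKO and 23 CPM in A375.

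The 4 factors lower in MITFKO were SOX9, NR2F1, TFAP2B and SOX5. SOX9, a factor of chondrocytes and glia, was at 0.244, 0.318 and 0.629 CPM in MITFKO and at 11.5, 8.07 and 10.7 CPM in A375 (log2 fold change -4.66 ± 0.281, adjusted p = 9.66e-20). NR2F1, an orphan nuclear receptor of the neural crest, was at 0.293, 0 and 0 CPM in MITFKO and at 33, 23.9 and 29.7 CPM in A375. TFAP2B, an AP-2 factor, had 0 counts in MITFKO and averaged 12.3 ± 1.08 CPM in A375, at least 239-fold lower. These 3 genes were near or at the floor in the SKMEL28 wild-type library too, with 0.692 CPM of SOX9, 0.173 CPM of NR2F1 and 0 of TFAP2B. TBX3, a repressor of the cadherin gene CDH1, was matched, at 179, 184 and 185 CPM in MITFKO, 18.4 CPM in the SKMEL28 wild-type library and 154, 160 and 158 CPM in A375.

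Myelin basic protein and S100B were higher in MITFKO. MBP was at 633, 633 and 651 CPM in MITFKO and at 0, 0.194 and 0.292 CPM in A375. S100B, the calcium-binding protein used as a melanoma serum marker, was at 552, 556 and 561 CPM in MITFKO and at 2.68, 3.21 and 3.02 CPM in A375. The S100B libraries did not overlap, as at 85.1% of all genes tested. The log2 fold change of S100B was 7.55 ± 0.0655 (edgeR adjusted p = 2.87e-52). Of 10 S100 genes tested, 2 were past 2-fold higher in MITFKO (S100B and S100A1) and 4 lower, among them S100A4, linked to motility, at 1.83 CPM in MITFKO and 69.5 CPM in A375.

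The invasive melanoma state was held in part by the edited line. Of 32 genes of that list tested, 4 were past 2-fold higher in MITFKO, 18 were lower and 3 were matched. The median difference from A375 in log2 CPM was -1.35 in MITFKO and -3.97 in the SKMEL28 wild-type library. Single genes were near-absent in MITFKO, between the SKMEL28 wild-type library and A375, level with A375 or above it, and are described in that order. This grouping was made after their values were seen.

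AXL, the receptor tyrosine kinase most used to mark the invasive state, was near-absent. It was counted at 0.146, 0 and 0 CPM in MITFKO and at 701, 664 and 697 CPM in A375. The 3 MITFKO counts, all in replicate 1, against 42619 in A375 gave an A375 over MITFKO ratio of 14082, with an exact 95% interval of 4582 to 64932.5 that covers counting error only; without MITFKO replicate 1 no MITFKO count is left. The SKMEL28 wild-type library held 0.0432 CPM. VEGFC, a lymphatic growth factor, was likewise low at 0.306 CPM in MITFKO and 47.1 CPM in A375, and CCN1, a matricellular YAP target, at 1.52 ± 0.384 CPM in MITFKO and 176 ± 2.29 CPM in A375.

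WNT5A, the ligand of non-canonical WNT signalling, was between. It was at 74.6, 73 and 72.4 CPM in MITFKO, 1.69 CPM in the SKMEL28 wild-type library and 209, 211 and 216 CPM in A375 (MITFKO over A375 log2 fold change -1.53 ± 0.0472, adjusted p = 7.28e-31). ITGA5, the fibronectin receptor subunit, was at 105, 117 and 134 CPM in MITFKO, 4.8 CPM in the SKMEL28 wild-type library and 267, 278 and 262 CPM in A375. N-cadherin (CDH2) averaged 108 ± 4.93 CPM in MITFKO, against 37.6 CPM in the SKMEL28 wild-type library and 271 ± 9.3 CPM in A375. No MITFKO library of these 3 genes overlapped an A375 library, as at 85.1% of all genes tested.

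NRP1, a co-receptor of semaphorins and VEGF, was level with A375. It was at 138, 144 and 140 CPM in MITFKO, 0.692 CPM in the SKMEL28 wild-type library and 175, 180 and 169 CPM in A375. Its log2 fold change of -0.31 had a 95% interval of -0.41 to -0.22, which passed the test of a difference (adjusted p = 2.64e-08) and lay inside the margin of a match. ZEB1, an EMT repressor of E-cadherin, was at 28.4, 29 and 29.3 CPM in MITFKO, 3.03 CPM in the SKMEL28 wild-type library and 37.3, 36.8 and 37.9 CPM in A375. PLEC, the cytolinker plectin, averaged 1779 ± 85.2 CPM in MITFKO, 477 CPM in the SKMEL28 wild-type library and 2079 ± 39 CPM in A375. The EMT list as a whole had 3 of 11 genes past 2-fold higher in MITFKO and 4 lower, with ZEB2 (79.3 CPM in MITFKO, 15.9 CPM in A375) and TWIST1 (43.8 CPM in MITFKO, 12.3 CPM in A375) among the higher and CDH13 (0.0353 CPM in MITFKO, 152 CPM in A375) among the lower.

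A few genes stood above A375. FN1, fibronectin, averaged 5898 ± 99.2 CPM in MITFKO and 298 ± 10.5 CPM in A375, but was also at 5587 CPM in the SKMEL28 wild-type library. IGFBP3, a binder of insulin-like growth factors, was at 2212, 2078 and 2238 CPM in MITFKO, 12.8 CPM in the SKMEL28 wild-type library and 47.2, 50.5 and 44.4 CPM in A375 (MITFKO over A375 log2 fold change 5.52 ± 0.0443, adjusted p = 3.98e-53). LIF, an interleukin-6 family cytokine, was at 1131, 1239 and 1210 CPM in MITFKO, 42.1 CPM in the SKMEL28 wild-type library and 127, 132 and 137 CPM in A375. These libraries of MITFKO lay above every other library shown for IGFBP3 and LIF.

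**Figure D3:**
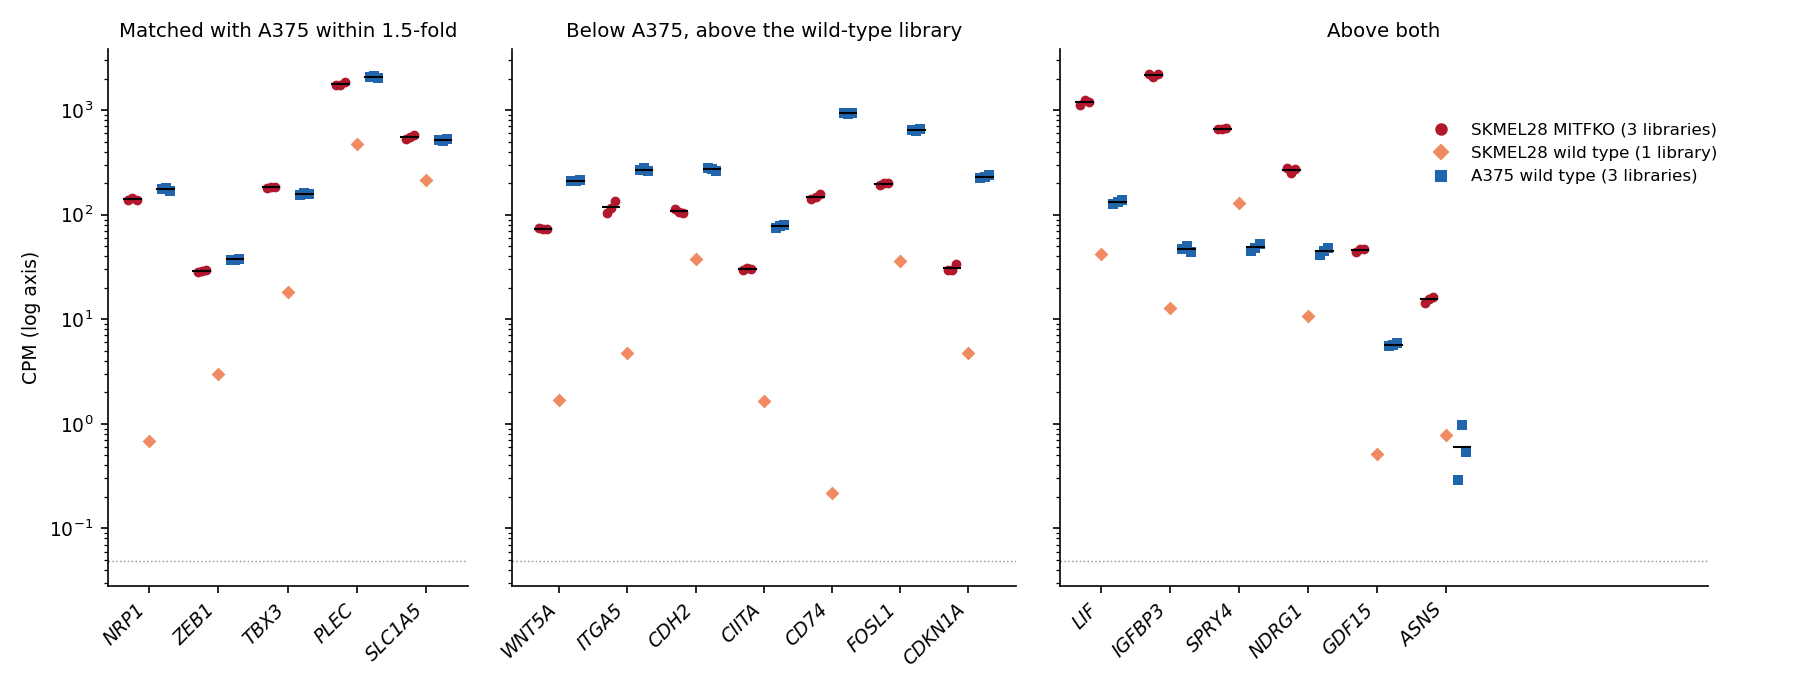
CPM (log axis) of genes matched with A375 within 1.5-fold (left), below A375 but above the SKMEL28 wild-type library (middle) and above both (right), in SKMEL28 MITFKO (circles), SKMEL28 wild type (diamond, 1 library) and A375 wild type (squares), with bars at the means of 3 libraries. The genes were grouped after their values were seen; NRP1 is level at 141 CPM in MITFKO and 175 CPM in A375, CD74 is between at 149 CPM in MITFKO and 935 CPM in A375, and IGFBP3 is above at 2176 CPM in MITFKO and 47.3 CPM in A375.

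Receptor tyrosine kinases differed in both directions. Of 27 tested, 11 were past 2-fold higher in MITFKO, 12 were lower and 1 was matched, EPHB4 at 100 CPM in MITFKO and 92.3 CPM in A375. Within the TAM family, AXL was counted in A375, and MERTK, its relative in phagocytosis, in MITFKO: MERTK was at 23.6, 21.6 and 23.4 CPM in MITFKO and at 0, 0 and 0.0487 CPM in A375. EPHA2, an ephrin receptor linked to BRAF inhibitor resistance, was at 0.732, 2.44 and 1.05 CPM in MITFKO and at 710, 697 and 703 CPM in A375. The log2 fold change of EPHA2 was -8.98 and became -9.61 without MITFKO replicate 2, the highest of the 3. EGFR, named after its values were seen, averaged 8.69 ± 0.41 CPM in MITFKO and 72.9 ± 2.89 CPM in A375. IGF1R, the type 1 insulin-like growth factor receptor, was higher in MITFKO at 388 CPM, against 116 CPM in A375.

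Genes induced by the ERK pathway were more often higher in MITFKO than lower. Of 25 genes of ERK output and the AP-1 factors tested, 11 were past 2-fold higher in MITFKO, 3 lower and 5 matched, and the median difference in log2 CPM was 0.724, against -0.144 for the SKMEL28 wild-type library. SPRY4, a Sprouty inhibitor of the pathway, was at 656, 661 and 669 CPM in MITFKO and at 45.5, 48.3 and 52.2 CPM in A375. SPRY1 averaged 46.1 CPM in MITFKO and 1.63 CPM in A375, while SPRY2 was matched at 130 CPM in MITFKO and 120 CPM in A375. The AP-1 subunit FOSL1 went the other way, at 194, 199 and 202 CPM in MITFKO, 35.8 CPM in the SKMEL28 wild-type library and 653, 633 and 658 CPM in A375 (MITFKO over A375 log2 fold change -1.71 ± 0.0375, adjusted p = 9.97e-37).

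The WNT list had 9 of 24 genes past 2-fold higher in MITFKO and 5 lower. RNF43, a ubiquitin ligase that removes WNT receptors, had 2062 counts in MITFKO and 1 in A375. DKK1, a secreted WNT antagonist, averaged 10.9 CPM in MITFKO and 208 CPM in A375, and CTNNB1, beta-catenin, was matched at 439 CPM in MITFKO and 491 CPM in A375.

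Matrix genes differed in both directions. Among 28 collagens and laminins tested, 8 were past 2-fold higher in MITFKO, 14 were lower and 4 were matched. COL4A2, a chain of basement membrane collagen IV, was at 1.51, 2.07 and 1.36 CPM in MITFKO and at 741, 747 and 793 CPM in A375, and its partner COL4A1 averaged 4.64 CPM in MITFKO and 302 CPM in A375. The fibrillar chain COL11A1 was at 206, 200 and 207 CPM in MITFKO and at 0.0958, 0 and 0.0487 CPM in A375. Laminin chains LAMC1 (690 CPM in MITFKO, 820 CPM in A375) and LAMB1 (345 CPM in MITFKO, 438 CPM in A375) were matched.

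Among 33 matricellular proteins and proteases tested, 19 were past 2-fold higher in MITFKO and 7 lower, with a median difference in log2 CPM of 2.08 in MITFKO and 0.362 in the SKMEL28 wild-type library. Both gelatinases were near-absent in MITFKO: MMP2 had 0 counts in MITFKO and 475, 470 and 473 CPM in A375, at least 9209-fold lower, and MMP9 averaged 0.429 CPM in MITFKO and 47.3 CPM in A375. The collagenase MMP8 averaged 291 ± 10.2 CPM in MITFKO and 4.14 ± 1.04 CPM in A375, and the membrane protease MMP17 230 CPM in MITFKO and 6.33 CPM in A375. Osteopontin (SPP1), a secreted integrin ligand, averaged 175 CPM in MITFKO and 5.64 CPM in A375.

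Integrins had 5 of 16 past 2-fold higher in MITFKO, 3 lower and 5 matched, against 19.8%, 18.5% and 23% of all genes. ITGB3, the beta subunit of the vitronectin receptor, averaged 925 CPM in MITFKO and 72.6 CPM in A375, ITGB4, the hemidesmosome subunit, had 0 counts in MITFKO and 31 CPM in A375, and ITGB1, the common beta subunit, was matched at 411 CPM in MITFKO and 390 CPM in A375. Genes of TGF-beta, BMP and YAP output were mostly lower in MITFKO, 14 of 27 past 2-fold, with 6 higher. TGFBI, a secreted TGF-beta target, was at 6.54, 7.53 and 5.87 CPM in MITFKO and at 625, 630 and 624 CPM in A375. BMP7, a ligand, averaged 66.1 CPM in MITFKO and 0.338 CPM in A375. Caveolae and actin contractility genes had 12 of 22 lower and 2 higher, with the tropomyosin TPM1 at 28.2 CPM in MITFKO and 415 CPM in A375, and non-muscle myosin MYH9 matched at 696 CPM in MITFKO and 862 CPM in A375.

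Secreted factors also differed in both directions. Of 39 IGF binding proteins and secreted factors tested, 12 were past 2-fold higher in MITFKO and 18 lower, with a median difference in log2 CPM of -0.742 in MITFKO and -3.24 in the SKMEL28 wild-type library. IGFBP4 had 0 counts in MITFKO and 381, 381 and 396 CPM in A375, at least 7515-fold lower. The macrophage factors CSF1 and CCL2 were at 0 and 0.155 CPM in MITFKO and at 28.9 and 45.6 CPM in A375. CXCL8, a neutrophil chemokine named after its values were seen, was at 130, 139 and 114 CPM in MITFKO, 8.21 CPM in the SKMEL28 wild-type library and 535, 551 and 561 CPM in A375.

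Genes of DNA replication and mitosis were lower in the edited line. Of 30 tested, 22 were past 2-fold lower in MITFKO, none was higher past 2-fold and 5 were matched, with a median difference in log2 CPM of -1.48 in MITFKO and -0.547 in the SKMEL28 wild-type library. CDC20, the activator of the anaphase-promoting complex, was at 69.8, 73.1 and 77 CPM in MITFKO, 223 CPM in the SKMEL28 wild-type library and 471, 470 and 497 CPM in A375. PCNA, the replication clamp, was at 55.1, 56.6 and 53.2 CPM in MITFKO, 175 CPM in the SKMEL28 wild-type library and 259, 256 and 257 CPM in A375 (MITFKO over A375 log2 fold change -2.23 ± 0.048, adjusted p = 4.96e-37). MCM5, a subunit of the replicative helicase, was matched at 150 CPM in MITFKO and 181 CPM in A375.

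Cell-cycle inhibitors did not move together. Among 23 G1 cyclins, CDKs and inhibitors tested, 3 were past 2-fold higher in MITFKO, 5 lower and 6 matched. The list was near the background, with 34.8% past 2-fold in either direction and 26.1% matched, against 38.3% and 23% of all genes. CDKN2A, the locus of the tumour suppressors p16 and ARF, was at 150, 159 and 163 CPM in MITFKO and at 5.12, 3.3 and 3.6 CPM in A375. Its neighbour CDKN2B was at 61.8, 64.1 and 66.2 CPM in MITFKO and had 0 counts in A375, at least 1323-fold higher. CDKN1A, the p53 target p21, was at 29.8, 29.7 and 34.1 CPM in MITFKO, 4.71 CPM in the SKMEL28 wild-type library and 226, 228 and 238 CPM in A375 (MITFKO over A375 log2 fold change -2.89 ± 0.0558, adjusted p = 7.01e-39). MYC averaged 157 CPM in MITFKO and 24.2 CPM in A375.

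The p53 target list was near the background in its share past 2-fold, 40.7% against 38.3% of all genes. Of 27 tested, 5 were past 2-fold higher in MITFKO and 6 lower. Its matched share was larger, with 10 of 27 (37%) against 23% of all genes. GDF15, a stress-induced cytokine, averaged 46 CPM in MITFKO and 5.73 CPM in A375, and the death receptor FAS 0.088 CPM in MITFKO and 22.7 CPM in A375. Of 20 survival genes of the BCL2 and IAP families, 5 were past 2-fold higher in MITFKO and 4 lower, against 19.8% and 18.5% of all genes. BCL2A1, a known MITF target, averaged 72.7 CPM in MITFKO and 2.49 CPM in A375, while the inhibitor of apoptosis BIRC3 had 2 counts in MITFKO and 2386 in A375.

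Lysosomal genes were higher in the edited line. Of 50 genes of the CLEAR network tested, the lysosome genes that TFEB, TFE3 and MITF can bind, 32 were past 2-fold higher in MITFKO, 3 were lower and 4 were matched. The median difference in log2 CPM was 1.32 in MITFKO and 0.892 in the SKMEL28 wild-type library. Cathepsin D (CTSD), whose promoter is printed above, was at 3146, 3250 and 3514 CPM in MITFKO, 4521 CPM in the SKMEL28 wild-type library and 169, 178 and 172 CPM in A375 (MITFKO over A375 log2 fold change 4.26 ± 0.0385, adjusted p = 5.83e-51). Acid ceramidase (ASAH1) averaged 553 CPM in MITFKO and 30.6 CPM in A375, and acid alpha-glucosidase (GAA), also printed above and named after its values were seen, 99.6 ± 3.48 CPM in MITFKO and 42.1 ± 2.21 CPM in A375.

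Cathepsin S (CTSS), the protease of antigen-presenting cells, was at 0.342, 0.371 and 0.262 CPM in MITFKO and at 55.1, 58.2 and 57.3 CPM in A375. The proton pump subunit ATP6V1A was matched at 81.4 CPM in MITFKO and 102 CPM in A375. Messenger RNA of TFE3 was at 77.3 CPM in MITFKO and 125 CPM in A375, and its part in the differences of the lysosome list was not tested.

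Autophagy genes had 9 of 31 past 2-fold higher in MITFKO and 1 lower, with a median difference in log2 CPM of 0.572. In either direction 32.3% of the autophagy list was past 2-fold, against 38.3% of all genes. WIPI1, a phosphoinositide binder of the early autophagosome and a MITF target, was at 76.7, 81.3 and 85.4 CPM in MITFKO and at 5.51, 5.98 and 5.94 CPM in A375. In the folliculin, Rag GTPase and mTORC1 list, 8 of 30 were past 2-fold higher, none lower and 10 matched. That list's share past 2-fold was 26.7%, against 38.3% of all genes. RRAGD, the Rag GTPase that brings MiT/TFE factors to the lysosome, was at 86.5, 87.6 and 83.6 CPM in MITFKO, 98.9 CPM in the SKMEL28 wild-type library and 6.75, 4.66 and 6.43 CPM in A375. GPNMB averaged 949 ± 11.5 CPM in MITFKO and 55.7 ± 5.6 CPM in A375, while RHEB, the activator of mTORC1, was matched at 111 CPM in MITFKO and 134 CPM in A375.

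Genes of the amino acid response were mostly higher in the edited line than in A375. Of 37 genes of the ATF4 response and amino acid supply tested, 22 were past 2-fold higher in MITFKO, 2 lower and 5 matched. The median difference in log2 CPM was 1.45 in MITFKO and -0.066 in the SKMEL28 wild-type library. The 2 lower members were STC2 (0.0175 CPM in MITFKO, 50.2 CPM in A375) and ATF5 (24.4 CPM in MITFKO, 70.6 CPM in A375). ASNS, asparagine synthetase, was at 14.4, 15.6 and 16.5 CPM in MITFKO, 0.778 CPM in the SKMEL28 wild-type library and 0.287, 0.972 and 0.536 CPM in A375 (MITFKO over A375 log2 fold change 4.68 ± 0.232, adjusted p = 7.00e-23). DDIT3, the stress factor CHOP, named after its values were seen, was at 83, 94.6 and 89.4 CPM in MITFKO, 17.7 CPM in the SKMEL28 wild-type library and 9.58, 11 and 12.2 CPM in A375.

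SLC1A4, a neutral amino acid exchanger, averaged 707 CPM in MITFKO and 37 CPM in A375, and SLC7A8, a large neutral amino acid transporter outside the list, 429 CPM in MITFKO and 0.242 CPM in A375. SLC38A1, a sodium-coupled glutamine carrier also outside the list, was at 0, 0 and 0.0524 CPM in MITFKO, 0.13 CPM in the SKMEL28 wild-type library and 237, 226 and 223 CPM in A375. The glutamine exchanger SLC1A5 was matched, at 553 CPM in MITFKO and 519 CPM in A375. ATF4 itself, named after its values were seen, averaged 669 ± 26.5 CPM in MITFKO, 166 CPM in the SKMEL28 wild-type library and 315 ± 12.8 CPM in A375.

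Of 31 NRF2 and detoxification genes, 14 were past 2-fold higher in MITFKO and 5 lower. NQO1, a quinone reductase, averaged 2246 CPM in MITFKO and 331 CPM in A375, and haem oxygenase 1 (HMOX1) 566 CPM in MITFKO and 31.3 CPM in A375. Glycolysis and hypoxia genes had 9 of 30 higher, 2 lower and 9 matched, with 36.7% past 2-fold against 38.3% of all genes. Hexokinase 2 (HK2) was at 868 CPM in MITFKO and 132 CPM in A375. The respiratory chain had the largest matched share of the 35 lists: 14 of 27 were matched (51.9%, against 23% of all genes), 1 was past 2-fold higher and 1 lower. ATP synthase subunit ATP5F1A was matched at 433 CPM in MITFKO and 407 CPM in A375. Cholesterol and fatty acid synthesis genes had 3 of 31 higher and 7 lower, with 32.3% past 2-fold against 38.3% of all genes. The desaturase FADS2 was at 5.17 CPM in MITFKO and 46.3 CPM in A375.

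**Figure D4:**
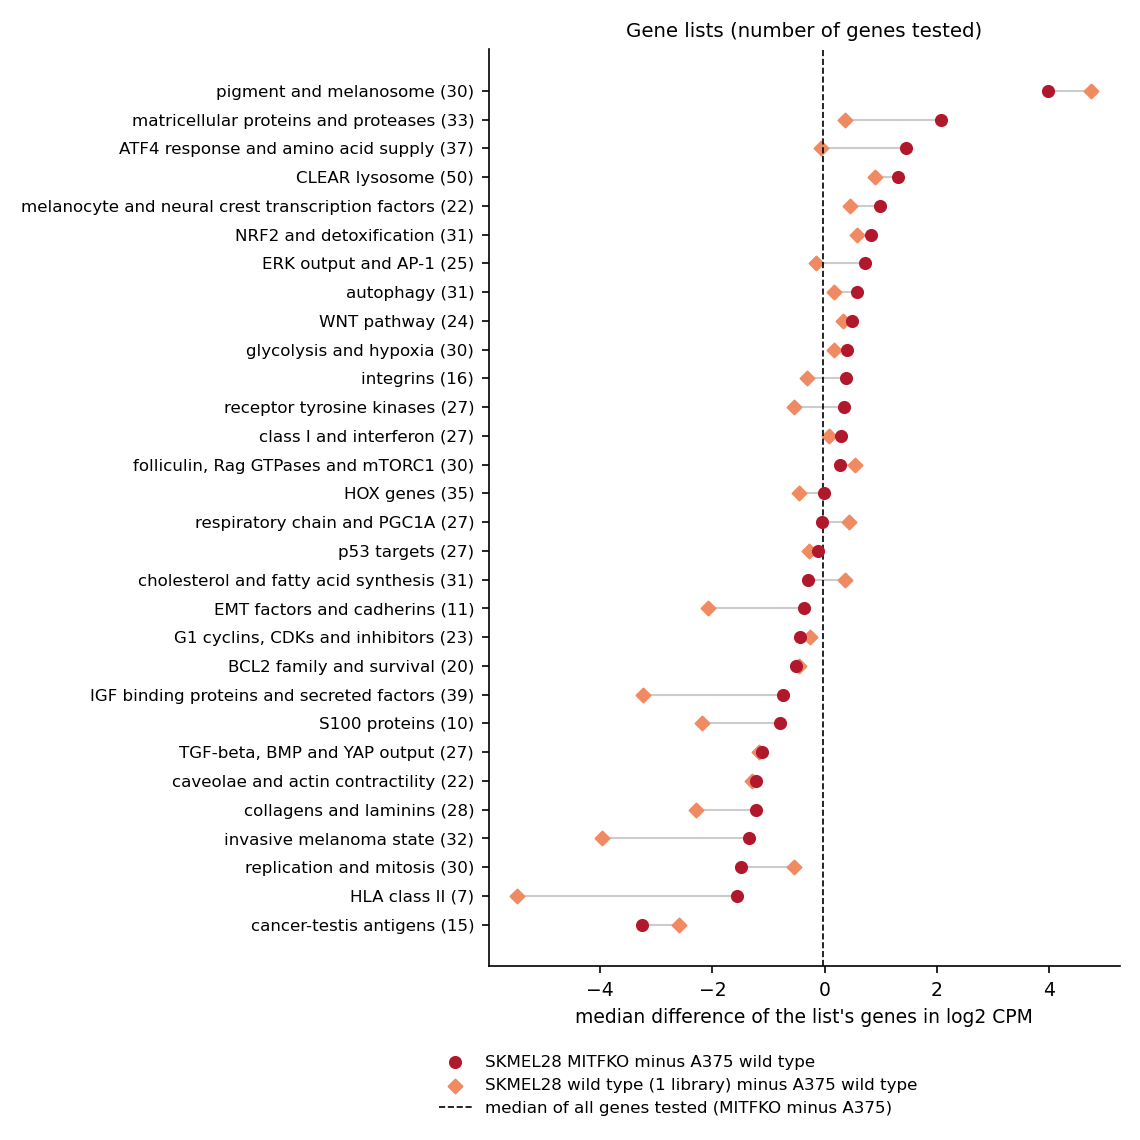
Median difference in log2 CPM of each gene list from A375 wild type, for SKMEL28 MITFKO (circles) and the single SKMEL28 wild-type library (diamonds), with the number of genes tested in brackets; the dashed line is the median of all genes. Both symbols of a list share the A375 libraries; for the invasive list the circle is at -1.35 and the diamond at -3.97, and for the replication list the circle is at -1.48 and the diamond at -0.547.

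Regulators of class II antigen presentation were lower in MITFKO. CIITA, the master activator of class II genes, was at 29.6, 30.9 and 30.4 CPM in MITFKO, 1.64 CPM in the SKMEL28 wild-type library and 75, 77.8 and 79.8 CPM in A375. CD74, the class II invariant chain, was at 143, 148 and 157 CPM in MITFKO, 0.216 CPM in the SKMEL28 wild-type library and 938, 930 and 937 CPM in A375 (MITFKO over A375 log2 fold change -2.65 ± 0.0387, adjusted p = 9.87e-44). Both genes lie outside the HLA region, on chromosomes 16 and 5. Within it, NEU1, a lysosomal gene that cells commonly use, had 0 counts in MITFKO and 2 in A375, and HLA genes differ between people in sequence, so HLA counts are uncertain here. With that limit, 5 of 7 class II genes tested were past 2-fold lower in MITFKO and 1 was higher. Of 27 class I and interferon genes, 7 were higher, 8 lower and 2 matched, against 19.8%, 18.5% and 23% of all genes. IFITM3, an antiviral membrane protein, averaged 1.51 CPM in MITFKO and 123 CPM in A375.

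Of 30 cancer-testis antigens, germline genes active in many melanomas, 18 had 0 counts in MITFKO and 11 in A375. Past 2-fold, 14 of the 15 tested were lower in MITFKO and 1 higher, against 18.5% and 19.8% of all genes. A member silent in MITFKO could enter the test only through its A375 counts, so its direction was set by the filter. MAGEC2 had 0 counts in MITFKO and 126 CPM in A375, at least 2453-fold lower, and PAGE1 averaged 69.7 CPM in MITFKO and 0.84 CPM in A375. These families hold near-identical copies, so single members are uncertain, and all 4 lower members named by the rule lie on chromosome X. HOX genes, which keep positional identity, had 8 of 35 higher, 9 lower and 4 matched, against 19.8%, 18.5% and 23% of all genes. HOXC11 and HOXA10 had 0 counts in MITFKO and averaged 14.6 and 13.1 CPM in A375, whereas HOXA13 averaged 17.3 CPM in MITFKO and 1.33 CPM in A375.

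Genes with the largest fold differences are named by a fixed rule of size. Those higher in MITFKO, beside DCT, TYR, COL11A1, PMEL, MBP, RNF43, SLC7A8, MERTK and CDKN2B, were the vesicle-priming factor CADPS (147 CPM in MITFKO, 0 in A375), the RNA-binding protein CELF2 (69.5 CPM in MITFKO, 0.0479 CPM in A375) and the secretion factor STXBP2 (93.1 CPM in MITFKO, 0.0648 CPM in A375). Those lower in MITFKO included, beside AXL, SLC38A1, MMP2, IGFBP4 and CDH13, the orphan receptor GPRC5A at 0 CPM in MITFKO and 560, 559 and 535 CPM in A375. The aminopeptidase ANPEP, also called CD13, was at 0 CPM in MITFKO and averaged 451 CPM in A375. PRDX2, a peroxidase that most cells express, was at 0.0976, 0.106 and 0 CPM in MITFKO, 0.216 CPM in the SKMEL28 wild-type library and 196, 198 and 201 CPM in A375. The list ended with FERMT1 (0.0163 CPM in MITFKO, 164 CPM in A375), COL12A1 (0.0339 CPM in MITFKO, 149 CPM in A375), NEGR1 (0.0175 CPM in MITFKO, 61.1 CPM in A375) and SULF2 (0.0177 CPM in MITFKO, 55.1 CPM in A375). All 12 lower genes were also below 1 CPM in the SKMEL28 wild-type library.

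Among the most highly expressed matched genes were housekeeping enzymes and translation factors. GAPDH, of glycolysis, averaged 7942 ± 128 CPM in MITFKO and 7185 ± 21.2 CPM in A375. The elongation factor EEF2 averaged 3167 ± 169 CPM in MITFKO and 3103 ± 20.6 CPM in A375, with a 95% interval of the log2 fold change from -0.03 to 0.09. The glycolytic enzymes ENO1 and PKM differed by a log2 fold change of 0.20 and 0.10.

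Whole chromosomes were shifted between the lines. Both lines are aneuploid, and copy number was not measured here. Genes of chromosome 22 had a median log2 fold change of 0.88, with 139 of 346 past 2-fold higher in MITFKO (40.2%) and 27 lower (7.8%), against 19.8% and 18.5% of all genes. Chromosome 2 had a median of 0.64, with 312 of 947 higher (32.9%) and 93 lower (9.82%). Chromosome X had the lowest median, -0.51, with 79 of 504 higher (15.7%) and 158 lower (31.3%). LIF, HMOX1, CASTOR1 and ADM2 lie on chromosome 22 and FN1, HK2 and SLC1A4 on chromosome 2, while TFE3 and the MAGE and PAGE genes lie on chromosome X; the part of these shifts in their differences was not tested. The log2 fold changes were 3.17 for LIF, 4.18 for HMOX1, 4.31 for FN1 and -0.69 for TFE3. A chromosome median does not give the part of a single gene's difference that goes with its chromosome.

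**Figure D5:**
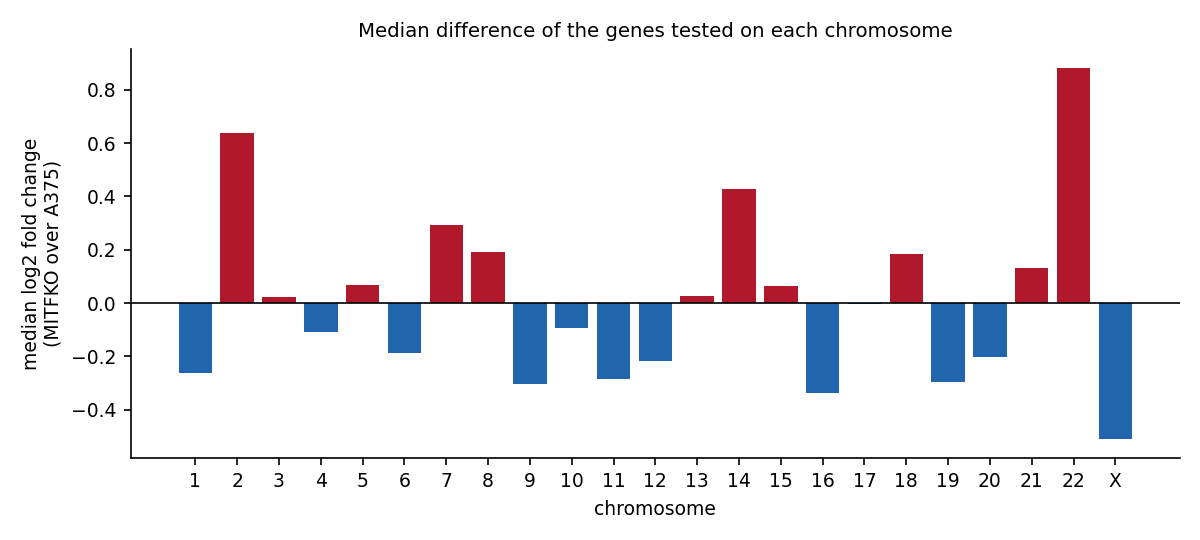
Median log2 fold change, SKMEL28 MITFKO over A375 wild type, of the genes tested on each chromosome (bars; Y not shown). Chromosome 22 (0.88) and chromosome 2 (0.64) are the highest and chromosome X (-0.51) the lowest.

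Markers of other cell types were summed over each list. The 16 keratinocyte and epithelium markers together held 107 to 112 CPM in the MITFKO libraries and 466 to 483 CPM in the A375 libraries, with 4 at 0 in each line. Of the 8 tested, 6 were past 2-fold lower in MITFKO and 1 higher. Simple-epithelium keratin KRT18 averaged 61.9 CPM in MITFKO and 354 CPM in A375, whereas the basal keratin KRT5 had 0 counts in MITFKO and 10 in A375. The 10 fibroblast markers held 53.5 to 64 CPM in MITFKO, mostly LUM (50.9 CPM in MITFKO, 0.965 CPM in A375), and 14 to 16.6 CPM in A375, with the defining surface marker THY1 at 1 count in MITFKO and 3 in A375. The 10 leukocyte and endothelium markers held 251 to 259 CPM in MITFKO and 41.1 to 46 CPM in A375, mostly the lysosomal protein CD68 (249 CPM in MITFKO, 34.4 CPM in A375), and the pan-leukocyte gene PTPRC had 6 counts in MITFKO and 0 in A375. The 11 neuron and Schwann cell markers held 3087 to 3213 CPM in MITFKO and 1495 to 1535 CPM in A375, with 4 of 10 tested past 2-fold higher in MITFKO, 1 lower and 1 matched.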

How the data were processed

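Per the labels' protocols, total RNA was extracted with a column kit and libraries were made by a service company. The deposited values are raw read counts per gene symbol, 1 file per library, for 28278 symbols. Per the submitters' processing notes, STAR, featureCounts, DESeq2 and the build hg19 were used, with no versions. The sources used here state neither strand setting, nor annotation release, nor treatment of multi-mapping reads, so overlapping genes, HLA genes and families with near-identical copies are uncertain. Per the file headers, 5 of the 6 libraries carry input number 38, A375 replicate 2 carries none and the SKMEL28 wild-type library carries 3.

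From the deposited counts, genes were filtered with filterByExpr and scaled by TMM. They were tested in edgeR 4.0.16 (R 4.3.3) with the robust quasi-likelihood F-test and with glmTreat against 2-fold. P-values were adjusted by Benjamini-Hochberg over all 14349 genes, and the test was checked on simulated data. SE is the log2 fold change divided by the square root of F. The log2 CPM values use a prior count of 2. Replicate pairs differed beyond sampling noise (chi-square per degree of freedom 3.19 to 5.46). Exact intervals and floors cover counting error only. Symbols were matched to RefSeq GRCh38.p14 for chromosomes and promoters (27629 of 28278), with 28 of 32 pigment and 31 of 52 lysosome promoters found.

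Named genes are MITF, TFE3, TFEB and TFEC; the 12 with the largest fold in each direction among genes past 2-fold with at least 10 CPM in the higher group and no overlap; the 8 most expressed matched genes outside ribosomal, mitochondrial and histone families; and in each of 35 lists up to 4 past 2-fold in each direction (at least 5 CPM in the higher group) and 2 matched. Members and lists were chosen with earlier results of these data known. No set test was run.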

Additional observations from a re-analysis of the deposited data

How the results depend on the processing

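Counts past 2-fold and called in each direction stayed within 1.5 times under DESeq2, other scalings, no filter, a stricter filter, all 16 libraries in the fit and each library left out. Past 2-fold, 2808 to 2870 genes were higher in MITFKO and 2644 to 2775 lower with 1 library left out, and DESeq2 gave 2466 and 2308. Matched genes ran from 3120 to 3220 with 1 library left out; a 2-fold margin gave 6266. With a prior count of 0.5 the root mean square distances from A375 were 2.5003, 2.51 and 2.52 for MITFKO and 2.54 for the SKMEL28 wild-type library. Of 3471 values of 267 named genes under alternatives, 3432 kept their direction and side of the threshold, 34 lost the call, 5 gained it and 0 reversed. Those lost were matched genes with small differences, TBX3 among them, and TFEB.

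Same-numbered libraries did not deviate together (r = 0.0231, -0.00867 and 0.0335), so the numbers pair nothing. With a replicate block, 5865 genes were called higher and 6128 lower, 2820 and 2618 past 2-fold, with 3274 matched. TFEB lost its call under the block, with an edgeR adjusted p of 0.0651.

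Medians of 124 of 455 list values moved by more than the spread between replicates; the fibroblast and leukocyte lists, with 6 and 4 genes tested, changed sign (fibroblast -1.14, or 0.077 without a filter and 1.38 with all 16 libraries; leukocyte 1.11, or -0.917 and -1.20), as other genes entered. For genes near the floor, 1 library decided the fitted fold: NR2F1 moved from -8.05 to -12.17 without MITFKO replicate 1. The design, 3 cultures of 1 edited line against 3 of another line in other medium, bounds what any of these values describe.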
